A study of Mus musculus with 80 samples.

Results

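The difference between primiparous and virgin females was compared between the hypothalamus and the amygdala, using the 31 libraries of these regions among the 77 analysed here. The members were all libraries of either region: 8 virgin and 8 primiparous for the hypothalamus, and 7 virgin and 8 primiparous for the amygdala, each made from 1 region of 1 animal. The animals were C57BL/6 females by the labels, C57BL/6J by the methods of the study, kept in the same barrier room. Virgin females were never mated and lived in groups, whereas each primiparous female was mated at 8 weeks of age, shared a pen with a male for 2 weeks and raised her first litter. The labels place tissue collection 3 weeks after weaning, while the methods of the study state a longer interval. Only the primiparous females had met males and pups, so mating, pregnancy, nursing and housing cannot be told apart. The whole hypothalamus was used, but only the left side of the amygdala. The methods of the study state that each region's libraries were pooled for sequencing. They do not say whether the regions were sequenced separately. Because 1 virgin amygdala library was left out by the authors, 15 animals (7 virgin, 8 primiparous) had both libraries.

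The hypothalamus controls pituitary hormone release, feeding, temperature and parental behavior through peptide-producing neurons. The amygdala, a structure of the temporal lobe, processes fear, odors and social signals and is connected with the hypothalamus. Both regions carry receptors for estrogen, prolactin and oxytocin, and both take part in maternal care.

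The value reported for each gene is the interaction, which is the primiparous minus virgin difference in the hypothalamus minus the same difference in the amygdala, on a log2 scale. It was tested in edgeR with the animal as a block, so that each hypothalamus was compared with the amygdala of the same female. A positive interaction means that the hypothalamus minus amygdala gap was larger in primiparous than in virgin females. Levels are counts scaled to library size (CPM) from which the dependence on GC content and exon length, fitted library by library, was taken out, and are called corrected CPM below. CPM is not divided by gene length, so levels are compared only within a gene. The threshold was a Benjamini-Hochberg adjusted p of 0.05 over 13016 genes.

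The dissections matched their labels. The summed level of 12 hypothalamic marker genes, such as the peptide genes Pmch, Hcrt, Oxt and Avp, was 859 to 1510 CPM in hypothalamus libraries and 7.19 to 95.3 CPM in amygdala libraries. For 11 telencephalic and amygdalar markers, among them Slc17a7, the sum was 5300 to 7320 CPM in the amygdala and 505 to 688 CPM in the hypothalamus. Counted reads per library ranged from 7959192 to 23352639, and no 2 libraries held identical counts. The hypothalamus library of virgin animal 409 stood apart from its group in its trend with GC content and its share of mitochondrial reads, as given below.

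Without any correction, the interaction followed the base composition of the genes. Genes were sorted by GC content into 10 bins of equal size. For the hypothalamus, the median primiparous minus virgin difference was −0.25 in the bin of lowest GC content and 0.21 in the bin of highest. The amygdala had medians of 0.09 and −0.13 in these bins, so the order was turned around. The uncorrected interaction went from a median of −0.33 in the lowest bin to 0.32 in the highest. Across genes, its Pearson correlation with GC content was 0.61, a description over genes that share the same libraries. After the correction, the medians of the bins lay between −0.01 and 0.01.

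**Figure D1:**
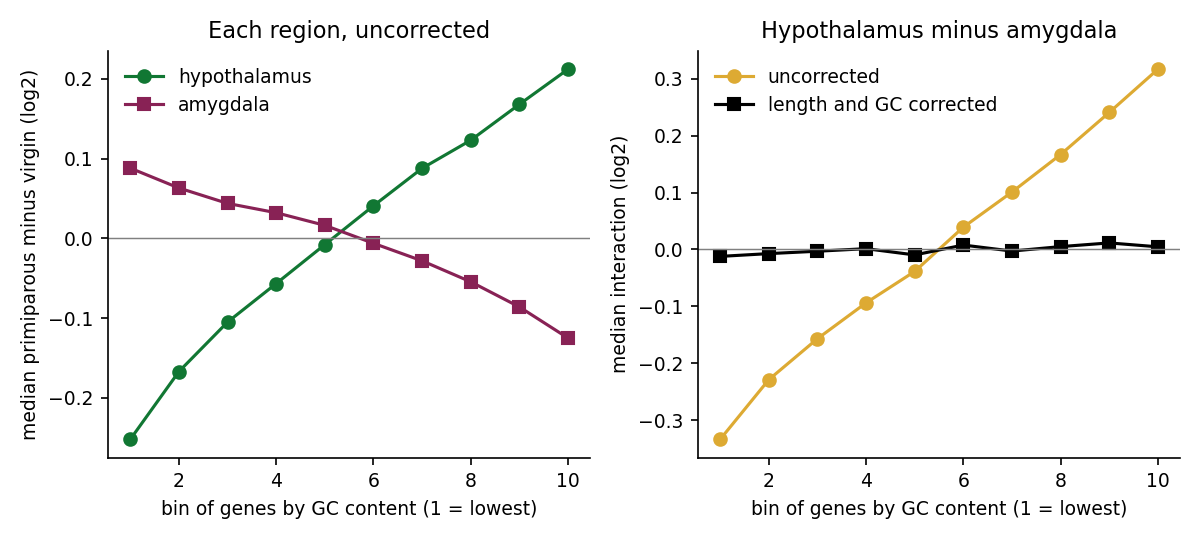
Median log2 difference (vertical axes) for genes sorted into 10 bins by GC content (horizontal axes), with the primiparous minus virgin difference of each region on the left and the interaction on the right. The uncorrected lines of the 2 regions slope in opposite directions and cross, and the corrected interaction lies between −0.01 and 0.01 in each bin.

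Each library's own trend with GC content showed the same pattern. For 10 points of GC, hypothalamus libraries of virgin females had slopes from −0.19 to 0.10 (median −0.15), and those of primiparous females from −0.09 to 0.31 (median 0.09). Amygdala libraries ran the other way, with slopes from −0.10 to 0.17 (median 0.09) in virgin and −0.12 to 0.07 (median −0.07) in primiparous females. The ranges overlapped in both regions. Within animals, the hypothalamus minus amygdala slope averaged −0.15 ± 0.12 (SD, n = 7) in virgin and 0.16 ± 0.15 (SD, n = 8) in primiparous females, a difference of 0.31 (exact two-sided permutation p = 0.00218, adjusted p = 0.00664 over 9 such tests). The hypothalamus of virgin 409 had a slope of 0.10, whereas the other virgins had negative slopes, and primiparous 418 had the only negative slope of its group, −0.09. What set these slopes was not tested.

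**Figure D2:**
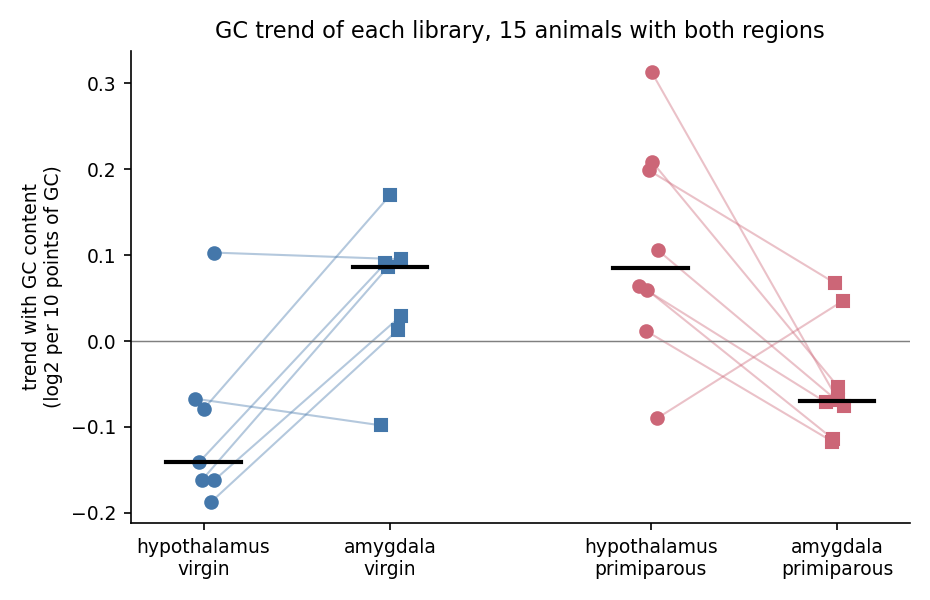
Slope of each library's expression against GC content (vertical axis, log2 per 10 points of GC) in the hypothalamus (circles) and amygdala (squares) of the 15 animals with both libraries; lines join libraries of 1 animal and black bars are medians. Slopes tend to go up from hypothalamus to amygdala in virgin animals and down in primiparous ones, with virgins 409 and 4486 and primiparous 418 as exceptions.

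The correction set how many genes differed. The corrected interaction passed the threshold for 96 of 13016 genes (0.738%), of which 60 were higher (0.461%) and 36 lower (0.277%). The uncorrected interaction passed for 1828 genes (14.0%), 955 higher (7.34%) and 873 lower (6.71%). Of the corrected genes, 71 had also passed without correction and 95 kept their sign. The uncorrected higher genes had a median GC content of 57.2% and the lower ones 41.6%, against 49.9% for all genes. In the corrected set these medians were 47.5% and 50.8%.

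The count of 96 was not stable to 2 further covariates. With the number of digits of the animal number (3 or 4) allowed to act in each region, 4 genes passed: Zwint, Emc9, Pura and Rfx3. Numbers of 3 digits belonged to 2 of 8 virgin and 7 of 8 primiparous animals, so this covariate shares much of its variation with the state, and it leaves 64% of the variance of the interaction term. In that fit all 96 genes kept their sign, 95 had an unadjusted p under 0.05, and their median size was 0.402 against 0.423. With each library's GC slope as a covariate on top of the correction, no gene passed edgeR's test, 1228 had an unadjusted p under 0.05, and the lowest adjusted p was 0.0609. That slope leaves 39.7% of the variance of the interaction term, so the test with it is less precise (median standard error 1.58 times as large), and the median size of the 96 interactions was also smaller, 0.286 against 0.423. Of the 96 genes, 95 kept their sign and 54 had an unadjusted p under 0.05 in that fit. Leaving out single animals gave 31 genes (without virgin 405) to 255 (without virgin 409).

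Opposite differences in the 2 regions made up nearly the whole set. Of the 96 genes, 93 had differences of opposite sign, and in 65 both regions had an unadjusted p under 0.05, with the hypothalamus higher in primiparous females for 42 and lower for 23. Over all genes tested, 52.7% had opposite signs and 1.63% met the second condition. Since a large interaction favors opposite signs, these counts describe the set and are not a test of it. The 60 higher genes had a median hypothalamic difference of 0.25 and a median amygdala difference of −0.18. The 36 lower genes had medians of −0.25 and 0.20. Taken region by region, the hypothalamus had 141 genes past the threshold (1.08%) and the amygdala 2 (0.0154%), where 1644 had an unadjusted p under 0.05 and limma-voom called 1. Without the correction they were 2131 (16.4%) and 7 (0.0538%). With the number of digits of the animal number as a covariate the corrected counts became 0 (778 with an unadjusted p under 0.05) and 39, again with digits spread unevenly over the states. Without 1 animal at a time they ranged from 39 (without virgin 4491) to 267 (without virgin 409) in the hypothalamus and from 0 to 106 (without virgin 409) in the amygdala.

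**Figure D3:**
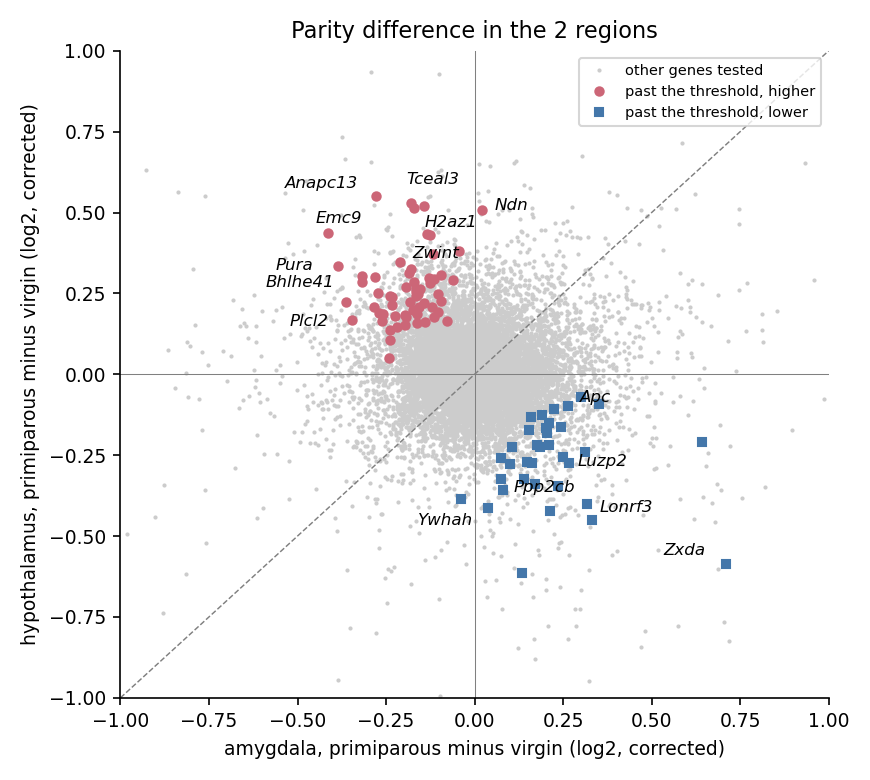
Corrected primiparous minus virgin difference (log2) in the amygdala (horizontal) and hypothalamus (vertical) for each gene tested; red circles and blue squares are genes whose interaction passed the threshold, and the dashed line marks equal differences. Most red circles lie in the upper left and most blue squares in the lower right; 80 genes, among them Gh, lie outside the axes.

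Zwint had the smallest p, and it shared the smallest adjusted p, 0.0016, with Pura and Emc9. Zwint encodes a kinetochore protein that is also abundant in neurons, where it binds SNAP25. Virgin hypothalamus libraries had 638 to 760 corrected CPM (median 671), and primiparous ones 755 to 1010 (median 851). The amygdala had the reverse order, with 491 to 612 (median 540) in virgins and 418 to 530 (median 480) after a litter. The groups overlapped slightly in each region, but within animals they did not: the hypothalamus minus amygdala difference was 0.10 to 0.49 in virgin and 0.68 to 1.22 in primiparous females. The interaction was 0.55 ± 0.08 (SE, adjusted p = 0.0016), from a hypothalamic difference of 0.35 and an amygdala difference of −0.21.

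Pura and Emc9 differed in the same way. Pura, a single-stranded nucleic acid-binding protein that takes part in mRNA transport in dendrites, had medians of 39.8 and 51.1 corrected CPM in the hypothalamus of virgin and primiparous females and of 49.7 and 40.9 in the amygdala. Its hypothalamus minus amygdala difference was negative in every virgin (−0.56 to −0.10) and positive in every primiparous female (0.06 to 0.56). The interaction was 0.70 ± 0.10 (SE, adjusted p = 0.0016). Emc9 encodes a subunit of the endoplasmic reticulum complex that inserts membrane proteins. Its level in the hypothalamus went from 16.1 to 26.6 in virgin and from 21.2 to 40.1 in primiparous females, and the amygdala medians were 20.3 and 15.4. The groups overlapped in each region and not within animals, and the interaction was 0.82 ± 0.12 (SE, adjusted p = 0.0016).

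**Figure D4:**
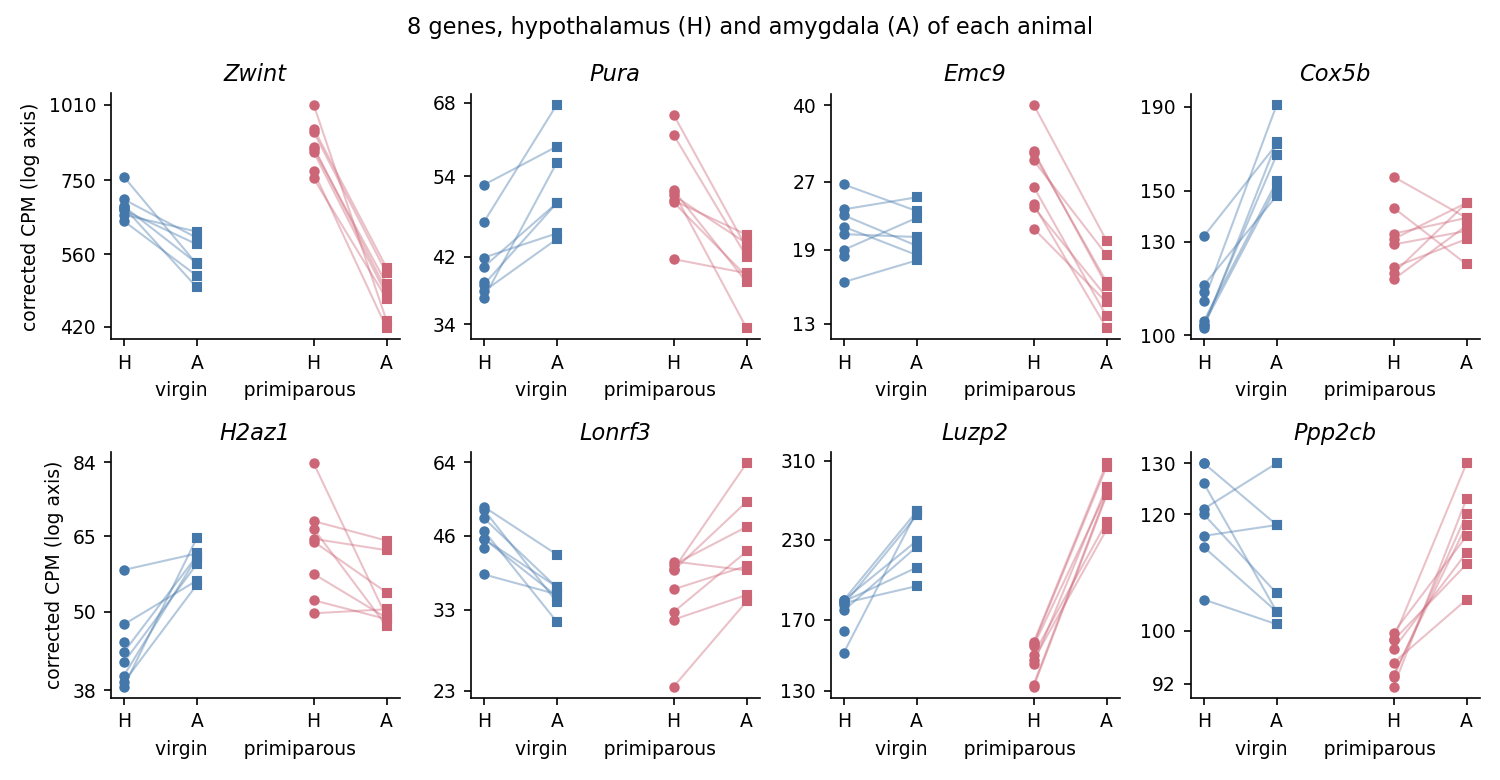
Corrected CPM (log axis) of 8 genes in the hypothalamus (H, circles) and amygdala (A, squares) of virgin (blue) and primiparous (red) females, with lines joining the libraries of 1 animal. For Zwint the lines fall in both states and more steeply in primiparous females. For Pura, Emc9, Cox5b and H2az1 they turn downward or flatten in primiparous females, and for Lonrf3, Luzp2 and Ppp2cb they turn upward or steepen.

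H2az1, Pfdn2, Tceal3, Snd1 and Plcl2 were also among the 10 genes with the smallest p and a positive interaction that passed both with and without correction. H2az1, a histone variant placed at promoters, had 38.5 to 57.8 corrected CPM (median 42.6) in the virgin hypothalamus and 49.7 to 83.8 (median 64.1) in the primiparous hypothalamus. Its amygdala medians were 60.4 and 49.7, and the highest virgin value in the hypothalamus was that of animal 409. The interaction of H2az1 was 0.69 ± 0.11 (SE, adjusted p = 0.0036), with a difference in the hypothalamus of 0.51. Pfdn2, a subunit of the prefoldin chaperone that hands tubulin and actin to their folding machine, had an interaction of 0.45 ± 0.07 (SE, adjusted p = 0.00302). Tceal3, an X-linked member of a family related to transcription elongation factors, reached 0.69 ± 0.12 (SE, adjusted p = 0.00557). For Snd1, a nuclease-domain coactivator, the interaction was 0.37, and for Plcl2, an inactive relative of phospholipase C, it was 0.51. In the fit of 4 groups Plcl2 was 1 of the 2 genes that passed for the amygdala, where it fell by 0.34 in primiparous females (adjusted p = 0.0151), from a median of 64.5 to 50.9 corrected CPM. No gene passed for the amygdala when this region was fitted on its own (1097 with an unadjusted p under 0.05), or in the fit of 4 groups without virgin 405, 4488, 4489 or 4490 or primiparous 427. Lists of 54 chromatin modifier and 25 endoplasmic reticulum chaperone genes had no call, which at 0.738% of all genes does not set them apart. Their median interactions were −0.01 and −0.04.

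Ndn was a gene whose levels followed the animal in both regions, which the animal block takes into account. This was not general. Over the genes tested, the hypothalamus and amygdala deviations of the same animal had a median correlation of 0.0238 (−0.125 to 0.122). With no block, 215 genes passed, against 96 with it. Ndn, an imprinted gene expressed in neurons, varied widely among animals: in the virgin hypothalamus it was 491 to 965 corrected CPM, and in the primiparous hypothalamus 669 to 1150. The amygdala values followed the same animals, so that virgins 4486 and 4491 were the highest virgins in both regions (965 and 936 in the hypothalamus, 412 and 405 in the amygdala). Within animals the spread was narrow, 1.20 to 1.34 in virgin and 1.41 to 1.92 in primiparous females, and these ranges did not overlap. The interaction was 0.43 ± 0.08 (SE, adjusted p = 0.00557). Between animals the hypothalamic difference of 0.51 did not pass (adjusted p = 0.2), and the amygdala difference was 0.02.

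Lonrf3 and Luzp2 led the genes with a negative interaction. Lonrf3, a RING-finger and LON-domain protein, had 38.7 to 52.4 corrected CPM (median 46.3) in the virgin and 23.4 to 41.0 (median 37.8) in the primiparous hypothalamus. In the amygdala the medians were 35.4 and 41.5. Every virgin had more Lonrf3 in the hypothalamus than in the amygdala (0.12 to 0.54), while primiparous females ranged from −0.63 to 0.05, and the interaction was −0.71 ± 0.11 (SE, adjusted p = 0.00201). Luzp2, a leucine zipper protein, had medians of 181 and 147 in the hypothalamus and 229 and 275 in the amygdala. Its groups overlapped only narrowly in each region, the within-animal differences overlapped as well, and the interaction was −0.52 ± 0.08 (SE, adjusted p = 0.00302).

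Ppp2cb, Ywhah, Camk2n1, Apc and Norad were also among the lower genes. Ppp2cb, a catalytic subunit of protein phosphatase 2A, fell in the hypothalamus from 105 to 130 corrected CPM in virgin females to 91.6 to 99.7 in primiparous females, ranges that did not overlap. In the amygdala its medians were 106 and 117, and the interaction was −0.39 ± 0.07 (SE, adjusted p = 0.00908). Ywhah, a 14-3-3 protein that binds phosphorylated partners, had an interaction of −0.46 (adjusted p = 0.00946). Camk2n1, an inhibitor of the kinase CaMKII, had the same value of −0.46 (adjusted p = 0.0182), with hypothalamic medians of 480 and 376, and passed in 14 of 16 fits without 1 animal (adjusted p up to 0.0632, without virgin 405). Apc, a scaffold of the Wnt pathway, had its larger difference in the amygdala, where the medians were 586 and 674 against 233 and 217 in the hypothalamus. Its interaction was −0.37 ± 0.07 (SE, adjusted p = 0.0131). Norad, a long noncoding RNA that binds Pumilio proteins, was lower in the primiparous hypothalamus (554 to 627) than in the virgin hypothalamus (638 to 732), with no overlap. It had no length or GC value in the annotation, so its levels were not corrected, and the interaction was −0.32 ± 0.06 (SE, adjusted p = 0.0134). The adjusted p of Norad was 0.0529 without virgin 405.

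Genes with opposite differences were ranked by the size of the interaction among named genes that passed with and without correction and had an unadjusted p under 0.05 in each region. Zxda, Anapc13, Emc9, Lonrf3, Pura and Bhlhe41 were the first 6. Zxda, a zinc finger gene with a near-identical neighbor, Zxdb, between which reads can be split, had hypothalamic medians of 6.28 and 3.47 corrected CPM and amygdala medians of 3.73 and 5.81. Its interaction was −1.43 ± 0.34 (SE, adjusted p = 0.0432), and it passed in only 5 of the 16 fits without 1 animal. Anapc13, a small subunit of the anaphase-promoting complex, had medians of 19.0 and 27.9 in the hypothalamus and 28.6 and 22.8 in the amygdala, with an interaction of 0.83 ± 0.17 (SE, adjusted p = 0.0208). Bhlhe41 (Dec2), a repressor in the circadian clock, was the only 1 of 19 clock genes to pass, beside 0.738% of all genes. Its medians were 33.0 and 40.5 in the hypothalamus and 30.1 and 23.7 in the amygdala, and the interaction was 0.59 ± 0.13 (SE, adjusted p = 0.0221). Anapc13 and Bhlhe41 each passed in 12 of the 16 fits without 1 animal.

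In the corrected edgeR fit, subunits of oxidative phosphorylation had the most calls among the lists. This order did not hold in every setting, since ribosomal protein genes had more calls with DESeq2 and without virgin 4486 or 4490. Both lists had the same number of calls without virgin 405, 409, 4489 or 4491 and without primiparous 414 or 4493. Without the correction, genes for ubiquitin activating, conjugating and ligase enzymes had more calls, 3 higher and 15 lower. The oxidative phosphorylation genes encode the respiratory chain complexes and the ATP synthase of mitochondria. Of 73 nuclear members tested, 6 were higher (Cox5b, Cox5a, Atp5g1, Atp5l, Ndufs6 and Uqcrq) and 1 was lower (Atp5c1), against 0.461% and 0.277% of all genes. The list's median interaction was 0.13, from medians of 0.06 for the hypothalamus and −0.05 for the amygdala, against a median of 0.00 for all genes, and 56 of 73 members were above 0. The members that passed sat in complex I (Ndufs6), complex III (Uqcrq), complex IV (Cox5a, Cox5b) and the ATP synthase (Atp5c1, Atp5g1, Atp5l). Median interactions were 0.13 for 37 genes of complex I, 0.16 for 9 of complex IV and 0.15 for 15 of the ATP synthase. They were smaller for 8 genes of complex III (0.07) and 3 of complex II (0.08). With the GC slope of the libraries as a covariate, 34 of 73 members were above 0 and the median was −0.03, so the direction of the list was lost there. Without 1 animal at a time, 1 (without virgin 4490) to 9 (without primiparous 418) members passed and the median stayed between 0.09 and 0.13. Uncorrected, 11 members were higher and 3 lower, beside 7.34% and 6.71% of all genes. Cox5a and Atp5l passed only with the correction (uncorrected adjusted p = 0.253 and 0.0729).

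Cox5b, a subunit of cytochrome c oxidase, was the most clearly separated of them. It had 102 to 132 corrected CPM (median 107) in the virgin and 117 to 156 (median 130) in the primiparous hypothalamus. In the amygdala it had 148 to 191 (median 166) and 122 to 145 (median 138), ranges that did not overlap. Within animals the difference was −0.78 to −0.35 in virgin and −0.28 to 0.22 in primiparous females, and the interaction was 0.53 ± 0.08 (SE, adjusted p = 0.00302). Atp5l, Atp5g1, Cox5a, Ndufs6 and Uqcrq had interactions of 0.38 to 0.61. Without 1 animal at a time, Atp5g1 passed in 9 of 16 fits (adjusted p up to 0.0867, without virgin 405) and Cox5a in 11 of 16 (up to 0.0644, without virgin 4489). Atp5g1 encodes the ring subunit of the ATP synthase and Atp5c1 its central stalk. Atp5c1 went the other way, with hypothalamic medians of 198 and 163 and amygdala medians of 161 and 173 (interaction −0.32, adjusted p = 0.0168). Without virgin 4490 its adjusted p was 0.0562.

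The genes of the mitochondrial genome had interactions opposite in sign to most nuclear members. This group was put together after its values were seen. All 15 genes tested had a negative interaction (−0.58 to −0.21, median −0.38). Of these 1 passed, COX1 (−0.56 ± 0.11 SE, adjusted p = 0.0131), beside 0.277% of all genes on the lower side. COX1, the catalytic core of cytochrome c oxidase, had medians of 13600 and 11300 corrected CPM in the hypothalamus and 17300 and 20900 in the amygdala. As a share of TMM-scaled counts, without the length and GC correction, the 15 genes together made up 4.49% to 5.82% in the virgin hypothalamus. In the primiparous hypothalamus they made up 3.53% to 4.58%. The lowest virgin value, 4.49%, was that of animal 409. In the amygdala the share was 4.39% to 8.13% in virgin and 5.70% to 9.32% in primiparous females. These genes are poor in GC (median 36.0%), and without the correction 13 of 15 passed, all lower, beside 6.71% of all genes. With either covariate 1 of the 15 was above 0 and none passed, while the median was −0.47 with the GC slope and −0.36 with the digits of the animal number. Without virgin 409, 7 of the 15 passed, all lower, where 121 of 13016 genes were called lower. Without any other animal, 1 of the 15 passed. COX2, ATP6, ATP8, COX3, ND3 and ND4L had mean levels of only 26.8 to 154 CPM. Reads that also map elsewhere in the genome were not counted.

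**Figure D5:**
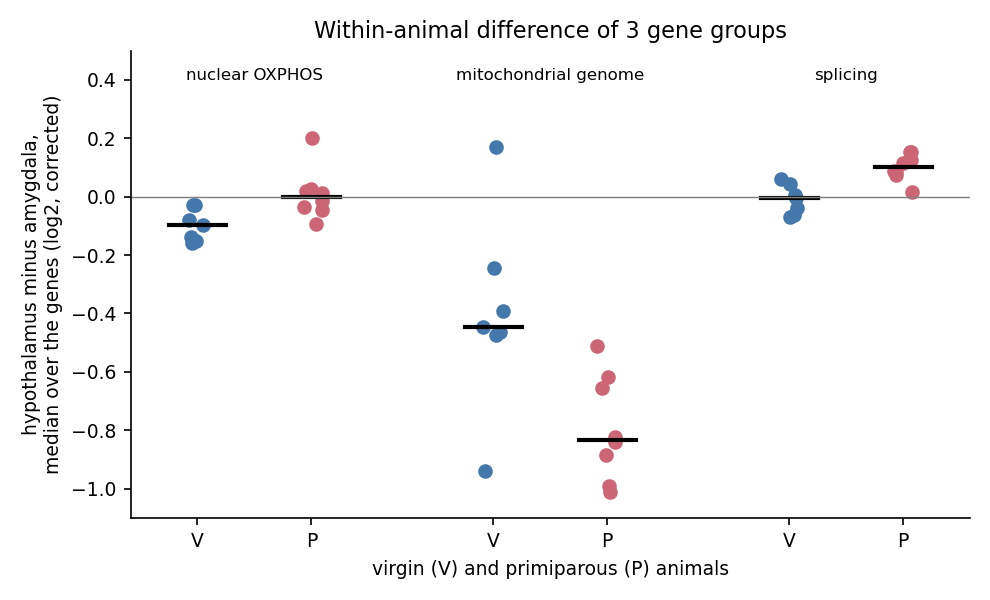
Hypothalamus minus amygdala difference within each animal (vertical axis, log2 of corrected values), as the median over 73 nuclear genes of oxidative phosphorylation, 15 genes of the mitochondrial genome and 56 splicing genes; points are virgin (V) and primiparous (P) animals and bars are medians. Primiparous animals lie higher for the nuclear and splicing genes and lower for the mitochondrial genome, with overlap in each group; the lowest virgin for the mitochondrial genome, at −0.94, is animal 409.

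Splicing factor genes also lay mostly above 0. Of 56 such genes, 46 had a positive interaction, the median was 0.14, and 2 passed on the higher side, where 0.461% of all genes did (1 to 5 passed without 1 animal, with 5 reached without virgin 4486), with 6507 of 13016 genes above 0. These were Hnrnpa1 and Hnrnpm, both RNA-binding proteins that guide splice site choice. Hnrnpa1 had medians of 158 and 195 corrected CPM in the hypothalamus and 151 and 140 in the amygdala (interaction 0.35, adjusted p = 0.0145). Hnrnpm had medians of 120 and 138, and of 143 and 131 (interaction 0.33, adjusted p = 0.0205), and passed in 13 of 16 fits without 1 animal. The median over the 56 genes within an animal was −0.07 to 0.06 in virgin and 0.01 to 0.15 in primiparous females. Uncorrected, the median was 0.03 with 31 of 56 genes above 0. In that fit 14 passed, 10 higher and 4 lower, beside 7.34% and 6.71% of all genes. The list's shift thus appeared mainly after the correction. With the GC slope as a covariate on top of it, the median was 0.12 with 41 of 56 genes above 0, and no member passed.

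Single members of the lists for protein synthesis and degradation passed, beside 0.461% higher and 0.277% lower of all genes. Among 78 cytosolic ribosomal protein genes, Rps28 (0.55, adjusted p = 0.0145) and Rpl10a (0.41, adjusted p = 0.039) were higher and Rpl35 (−0.36, adjusted p = 0.0158) was lower, with a list median of 0.04. Without virgin 4486, 10 members were higher and 1 lower (median 0.10), beside 93 and 41 of 13016 genes. Without virgin 409, 4 were higher and 3 lower, beside 134 and 121. Rpl10a passed in 5 of 16 fits without 1 animal (adjusted p up to 0.104, without virgin 4490). Many of these genes, and Hnrnpa1, have processed copies elsewhere in the genome, so the counting of reads with 1 place only may affect them. The list's median turned to −0.10 with the GC slope as a covariate. None of 77 mitochondrial ribosomal genes passed in edgeR, although 54 were above 0 (median 0.09). DESeq2 called 3 of them higher, beside 168 of 13016 genes, and limma-voom called 1. Without 1 animal at a time, 0 to 3 passed. Psmb6, a catalytic subunit of the proteasome, was the 1 of 37 proteasome genes to pass in edgeR (interaction 0.38, adjusted p = 0.0168, and 0.0529 without virgin 405). Its medians were 75.6 and 86.1 in the hypothalamus and 83.4 and 73.8 in the amygdala. DESeq2 called 4 proteasome genes higher, and 0 to 4 passed without 1 animal at a time. None of 57 genes for ubiquitin activating, conjugating and ligase enzymes passed in the corrected fit, whereas 18 had passed without correction, 15 of them lower, beside 6.71% of all genes. Of 16 glycolytic enzyme genes, 9 were higher without correction, beside 7.34% of all genes, and none passed with it (median 0.10). With 0.738% of all genes passing after the correction, lists of these sizes are not set apart by having no call.

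Few neuronal signaling genes passed, as was the case for all genes (0.738%). Syp, the vesicle protein synaptophysin, was the 1 of 44 synaptic vesicle genes to pass. Its medians were 966 and 1090 corrected CPM in the hypothalamus and 1510 and 1250 in the amygdala, and the interaction was 0.48 ± 0.09 (SE, adjusted p = 0.00946). None of 24 hypothalamic neuropeptide genes passed in edgeR (median 0.19, and 0.09 to 0.27 without 1 animal at a time). DESeq2 called 1, as did the fits without virgin 409 or without primiparous 4493. In edgeR the neuropeptide gene with the smallest p was Sst, somatostatin (interaction 0.36, adjusted p = 0.0551). Its medians were 127 and 151 in the hypothalamus and 284 and 265 in the amygdala. Among 39 peptide and hormone receptor genes the smallest p was that of Oxtr, the oxytocin receptor, with an interaction of −0.49 ± 0.17 (SE, adjusted p = 0.176). None passed among 22 glutamate receptor, 24 monoamine, 12 steroid receptor, 13 peptide-processing or 20 immediate early genes. Grin1, the obligatory NMDA receptor subunit, had 0.28 (adjusted p = 0.0531), Chga, chromogranin A, 0.45 (adjusted p = 0.0801), and Slc32a1, the vesicular GABA transporter, 0.46 (adjusted p = 0.0662). For Esrra, an estrogen-related receptor, it was 0.32 (adjusted p = 0.167).

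The 13 genes that the study singled out had no corrected call. This list was chosen on the same libraries. The study named these genes for a difference between virgin and primiparous females within the hypothalamus, which is not the interaction. A gene can differ in the hypothalamus without passing the interaction test, so the counts below do not repeat the study's comparison. Without the correction 6 passed, beside 14.0% of all genes, and with it none of the 13 did, beside 0.738%. Npy, an appetite-stimulating peptide, had an interaction of 0.58 uncorrected (adjusted p = 0.0222) and 0.43 corrected (adjusted p = 0.213), with 17.4 to 35.4 corrected CPM in the virgin and 24.8 to 48.0 in the primiparous hypothalamus and amygdala medians of 52.1 and 49.9. Preb, a regulator of prolactin transcription, had 0.31 (adjusted p = 0.0338) and 0.24 (adjusted p = 0.232). Gabra2, Gabra3 and Gabrg1, GABA-A receptor subunit genes of low GC content, also passed only without the correction. Gabra2 went from −0.68 (adjusted p = 0.00116) to −0.33 (adjusted p = 0.123), Gabra3 from −0.39 to −0.18, and Gabrg1 from −0.58 to −0.14. Among all 14 GABA-A genes, 7 passed without correction, beside 14.0% of all genes, and none with it, beside 0.738%.

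Gal, Prlr, Htr2c, Slc6a3, Gabrg3 and Dbp passed in neither fit. Galanin had 25.7 to 39.6 corrected CPM in the hypothalamus and at most 2.12 in the amygdala, so its interaction of 0.25 ± 0.43 (SE) was imprecise. Prlr, the prolactin receptor, had medians of 50.3 and 48.1 in the hypothalamus and 11.6 and 8.44 in the amygdala (interaction 0.23 ± 0.30 SE). Slc6a3, the dopamine transporter, ranged from 4.22 to 82.0 in the hypothalamus over both states, and its interaction was −1.49 ± 0.69 (SE, adjusted p = 0.374). Dbp, a clock output gene, had 0.14 ± 0.17 (SE). At this spread, differences of these sizes were not detectable.

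Markers of other cells and tissues were read in the same libraries. All but 1 of 11 astrocyte markers and all but 1 of 13 microglia markers had a negative interaction (medians −0.17 and −0.17), and none passed. Without 1 animal at a time, the astrocyte median ran from −0.26 (without virgin 409) to −0.07 (without virgin 4486) and the microglia median from −0.27 to −0.12 (without the same animals). Summed astrocyte markers were 3790 to 4640 CPM in the virgin and 3520 to 4790 in the primiparous hypothalamus, and 4960 to 8290 and 5980 to 7800 in the amygdala. Microglia markers summed to 335 to 365 and 319 to 417 in the hypothalamus, and to 422 to 687 and 538 to 701 in the amygdala. Of 17 oligodendrocyte markers, 10 were above 0 (median 0.02). The 10 hypothalamic markers tested had a median of 0.26, with 7 above 0 and none passing. Short lists of low level had medians of −0.99 for 7 choroid plexus markers, −0.55 for 5 thalamus markers and −0.39 for 3 blood markers, with no call, and of −2.55 for 3 pituitary markers, with 1 call (Gh). Choroid plexus markers summed to 38 to 52.8 CPM in the virgin and 36.7 to 63.5 in the primiparous hypothalamus, and to 18.1 to 98.7 and 20.8 to 90.4 in the amygdala. For the thalamus markers the sums were 66.3 to 232 and 57.3 to 101 in the hypothalamus and 44.0 to 58.3 and 49.9 to 67.5 in the amygdala. Blood markers summed to 24.5 to 51.5 and 30.1 to 96.3 in the hypothalamus, and to 16.1 to 63.1 and 25 to 75.6 in the amygdala. All these groups overlapped. In bulk tissue, fewer cells of a type and less RNA per cell cannot be told apart, and the part of these cells in the gene results was not tested.

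Gh was the only called gene among the pituitary markers, 3 of which passed the filter on low values. Growth hormone is made in the pituitary, which lies under the hypothalamus. Its level was at or near 0 in most libraries and high in a few animals, in both regions: primiparous 427 had 30.1 corrected CPM in the hypothalamus and 46.5 in the amygdala, primiparous 414 had 20.5 and 9.62, and virgin 4490 had 47.2 and 2.76. The fitted interaction was −3.59 ± 0.56 (SE, adjusted p = 0.00302), and without virgin 4490 the adjusted p was 0.0797. Summed over 9 pituitary markers, the level reached 200.0 CPM in the virgin and 160.0 in the primiparous hypothalamus, and 13.1 and 182 in the amygdala. The part of pituitary tissue in this gene's result was not tested.

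Single animals can be read from the within-animal differences. For 57 genes (0.438%) the 7 virgin and 8 primiparous animals did not overlap, 44 higher (0.338%) and 13 lower (0.0999%), and 34 of these were among the 96. Measured against the virgin mean, the 60 higher genes were above it in 96.7% to 100% of cases in each primiparous animal. In virgins the share was 23.3% to 63.3%, except for animal 409 with 90.0%. These shares describe the genes that the test picked out.

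The parity differences of some leading genes were also read in the other regions. Zwint, with 0.35 in the hypothalamus, had parity differences of 0.01 in the cerebellum, −0.02 in the hippocampus and 0.13 in the cortex. Pura had −0.03, −0.02 and 0.29, and Emc9 had 0.04, −0.08 and 0.24. Lonrf3 had 0.03, −0.02 and −0.18. Luzp2 (0.19, adjusted p = 0.0455) and COX1 (0.29, adjusted p = 0.0362) passed in the cerebellum, with the sign opposite to that in the hypothalamus (−0.26 and −0.27). For Zwint, Pura, Emc9 and Lonrf3 the cortex had the sign of the hypothalamus, but none of them passed in the cortex (adjusted p = 0.974 to 0.993). Whether the signs go together was not tested.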

How the data were processed

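The authors isolated polyadenylated RNA, prepared NEBNext Ultra libraries, mapped 100-base single-end reads to mm10 with Hisat2 and counted reads that map to 1 place with featureCounts and its inbuilt annotation; the strand setting is not given in the sources used here. The deposited table holds whole-number counts per gene, not normalized, for 27179 genes and 77 libraries. A deposited log2 table, made by the authors, was used here only to pair gene identifiers with symbols. The filter (5 CPM or more in 8 or more of the 77 libraries) kept 13016 genes.

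Counts were analysed with edgeR 4.0.16 in R 4.3.3 (TMM, robust quasi-likelihood F-test, Benjamini-Hochberg adjustment over all genes tested). The interaction model held the animal as block, region, and region by state, and the region differences came from a fit of 4 groups. Pairing comes from the labels, where equal numbers are the same animal; same-animal deviations of corrected values had a median correlation of 0.0238 (−0.125 to 0.122 over 15 animals), against 0.00117 for different animals. The hypothalamus library of virgin 4487 had no amygdala partner; without it the corrected interaction was called for 98 genes. For the correction, each library's trend with exon length and GC content (GENCODE M21, GRCm38; natural splines of 4 degrees of freedom each, on the deviation from its region's mean log2 CPM) entered as an offset. Length and GC were known for 12864 genes (98.83%), and the rest were not corrected. Within-animal differences used log2(corrected CPM + 4), which understates changes of low genes. Whole-library measures were compared by exact permutation in scipy over animals. Intervals and errors cover the spread between animals.

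Named genes were the 10 with the smallest p in each direction among those called both with and without correction, at 1 CPM or more in both regions and with a name other than a model or clone number, the 6 with the largest interaction among those of them with opposite differences and an unadjusted p under 0.05 in each region, the study's own named genes, and for each list up to 4 called members or else the one with the smallest p; a few that it selects were left out of the text. The members, lists and this rule were chosen with earlier results of these data known. Alternatives covered the normalization, the filter, DESeq2, limma-voom and limma-trend, other forms of the correction, the replicate block, covariates and leaving out each animal.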

Additional observations from a re-analysis of the deposited data

Results flagged for a closer look

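Single libraries lay apart from their group by Dixon's criterion (gap to the nearest value over the whole range) in 17 of 180 groups of values examined. Chance alone gives about 1 in 20 for independent groups. These groups share the same libraries, and most of the genes were picked for a called interaction. An excess over chance can therefore not be read from this count. The hypothalamus library of virgin 409 accounted for 9 of them. Its gap was 0.587 of the range for the GC slope and 0.733 for the share of mitochondrial reads. It was also 0.531 for Cox5b, 0.634 for Tceal3, 0.6 for Anapc13, 0.566 for Syp, 0.543 for Rpl10a and 0.6 for Hnrnpa1 on the high side, and 0.552 for Ywhah on the low side. For each of these genes the library lay on the side of the primiparous group.

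The hypothalamus and amygdala libraries of virgin 4490 were both high in Gh, with gaps of 0.769 and 0.697. In the hypothalamus, primiparous 413 was low for Lonrf3 (0.529), virgin 4491 low for Bhlhe41 (0.573), primiparous 414 low for Gabra3 (0.548), primiparous 4493 low for Gabrg1 (0.605) and primiparous 418 low for Atp5g1 (0.628). In the amygdala, primiparous 425 was low for Rpl10a (0.725).

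The parity difference departed between the regions, by the interaction test, for 96 genes. Log2 interactions are listed here for 32 of those described above. On the positive side they were 0.55 for Zwint, 0.70 for Pura, 0.82 for Emc9, 0.53 for Cox5b and 0.45 for Pfdn2. They were 0.69 for H2az1, 0.69 for Tceal3, 0.43 for Ndn, 0.37 for Snd1 and 0.51 for Plcl2. Further positive values were 0.83 for Anapc13, 0.59 for Bhlhe41, 0.48 for Syp, 0.41 for Cox5a and 0.47 for Atp5g1. The rest were 0.55 for Rps28, 0.41 for Rpl10a, 0.38 for Psmb6, 0.35 for Hnrnpa1 and 0.33 for Hnrnpm. On the negative side they were −0.71 for Lonrf3, −0.52 for Luzp2, −3.59 for Gh, −0.39 for Ppp2cb, −0.46 for Ywhah, −0.37 for Apc, −0.56 for COX1, −0.32 for Norad, −0.32 for Atp5c1, −0.46 for Camk2n1, −1.43 for Zxda and −0.36 for Rpl35.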

How the results depend on the processing

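The number of genes with a corrected interaction, 96, became 215 with no replicate block, 1645 with only gene length corrected, 1828 uncorrected, 537 with limma-voom quality weights, 277 with DESeq2, 4 with the digits of the animal number as a covariate and 0 with the library GC slope as a covariate. It ranged from 31 to 255 without 1 animal. The other 12 settings tried on this count gave 88 to 126. The uncorrected interaction, 1828 genes, became 159 with the digits covariate and 0 with the GC slope covariate (1187 with an unadjusted p under 0.05), and 1018 to 2696 without 1 animal. The GC slope covariate and the splines fitted on genes of at least 20 CPM were chosen after seeing the data. In the hypothalamus, 141 became 2131 uncorrected, 0 with the digits covariate and 411 in a fit of that region alone, with a range of 39 to 267 without 1 animal. In the amygdala, 2 became 7 uncorrected, 39 with the digits covariate, 0 in a fit of that region alone and 1 with limma-voom, with a range of 0 to 106. Genes with opposite differences, 93, became 1802 uncorrected, 215 with no replicate block and 31 to 251 without 1 animal. Non-overlapping genes, 57, became 155 uncorrected and 57 to 136 without 1 animal. The cause of these changes was not tested. The called genes kept their sign in all 19 other settings in 94 of 96 cases, but none was called in all of them. The blocked fit had 13 residual degrees of freedom and a biological coefficient of variation of 12.9%, which limits it for genes of few counts such as Gal and Gabrg3.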

Other observations

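The following further genes of the corrected set were chosen after their values were seen and form no tested group; of the 54 genes of the chromatin modifier list, none passed. Smarce1 and Smarcb1, both subunits of the BAF chromatin remodeling complex, had interactions of 0.49 (adjusted p = 0.0282) and 0.34 (adjusted p = 0.0432), each positive in the hypothalamus (0.37 and 0.21) and negative in the amygdala (−0.12 and −0.16). Bcl11a, a zinc finger protein known to bind the same complex, had 0.57 (adjusted p = 0.0287). Smarce1, and Tuba1b below, passed only with the correction (uncorrected adjusted p = 0.362 and 0.0616). Of genes tied to microtubules, Tuba1b (−0.56, adjusted p = 0.0242), an alpha-tubulin whose reads can be shared with close relatives, and Map2 (−0.41, adjusted p = 0.0437), a microtubule protein of dendrites, were lower, while Tbcd (0.45, adjusted p = 0.0238), a tubulin folding cofactor, and Dctn2 (0.33, adjusted p = 0.0481), a dynactin subunit, were higher.

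Mapk3 (ERK1) had an interaction of −0.33 (adjusted p = 0.0145) only after the correction, since its uncorrected adjusted p was 0.577. Trnp1 and Nkain1, with GC contents of 65.2% and 63.2%, likewise passed only with the correction (−0.42 and −0.43, uncorrected adjusted p = 0.959 and 0.756). In all, 25 of the 96 genes passed only in the corrected fit.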
